A study of Mus musculus with 4 samples.

Results

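The cells described here are cells of the adult mouse intestinal epithelium that carried RNA of mitosis genes, with and without irradiation, called cycling cells. They were taken from 2 single-cell libraries of mice carrying Bmi1-GFP, a reporter that places green fluorescent protein under the control of the Bmi1 locus. The first library is labelled adult and the second irradiated adult, and both carry the reporter, so neither is a reporter-free control. The labels used here give no radiation dose, no time to sampling, no gate, and no number, sex or exact age of mice. Epithelial cells were isolated by fluorescence-activated sorting and run with a 3' droplet kit, which counts RNA as unique molecular identifiers (UMIs), each standing for 1 captured molecule. Each group is 1 library, so nothing could be tested across replicates, and every interval printed is a 95% interval that covers counting error only. The other 2 of the 4 libraries, from embryos at day 12.5 and day 17.5, are not analysed here.

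Cycling cells were selected on their UMIs over 10 mitosis genes (Mki67, Top2a, Ccnb1, Ccnb2, Cdk1, Birc5, Cenpf, Tpx2, Ube2c and Plk1), of which at least 5 in sum were needed. Only cells that had 500 or more genes detected, and no more than 20% of UMIs from mitochondrial genes, were considered. This gave 174 of 3788 adult cells (4.59%, Clopper-Pearson interval 3.95% to 5.31%) and 72 of 3184 irradiated cells (2.26%, 1.77% to 2.84%). Together these are 246 of 6972 cells in both libraries and of 15800 in all 4. Each set is compared below with cells of its own library that held 0 UMIs over the 10 genes, 2645 in the adult and 2714 in the irradiated library, called 0-UMI cells. The 10 genes chose the cells, so their levels in cycling over 0-UMI cells are not a result. The 969 adult and 398 irradiated cells with 1 to 4 such UMIs entered neither set.

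The intestinal epithelium is renewed from the crypt base, where stem cells marked by Lgr5 and Olfm4 divide and supply a zone of dividing progenitors. Progenitors then become absorptive enterocytes or secretory goblet, Paneth, tuft and enteroendocrine cells, most of which no longer divide. Irradiation breaks DNA and stabilises the transcription factor p53, whose targets halt the cycle or start cell death, and crypts that survive pass through a regenerating state known for Ly6a (Sca-1), Clu (clusterin) and annexin expression.

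Most of the 10 mitosis genes are known targets of the DREAM and MuvB complexes, which hold cell-cycle promoters silent in resting cells through a short element, TTTGAA (the CHR), often near CCAAT boxes bound by NF-Y. The promoters of the 3 genes with the most UMIs in the cycling cells among those with a TTTGAA match are shown because they carry an element that most of the chosen genes hold. Each line gives the 150 bases before the RefSeq start in GRCm38.p6, on the gene's strand, with TTTGAA and CCAAT (or their reverse complements TTCAAA and ATTGG) in capitals.
Ube2c, chr2:164769779-164769928, plus strand: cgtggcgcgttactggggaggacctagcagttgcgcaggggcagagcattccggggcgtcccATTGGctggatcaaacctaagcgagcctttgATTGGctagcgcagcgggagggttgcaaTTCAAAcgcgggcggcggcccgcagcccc
Top2a, chr11:99024190-99024339, minus strand: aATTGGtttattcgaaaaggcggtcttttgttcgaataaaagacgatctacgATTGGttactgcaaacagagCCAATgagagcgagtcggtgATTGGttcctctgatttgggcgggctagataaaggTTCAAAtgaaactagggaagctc
Mki67, chr7:135716380-135716529, minus strand: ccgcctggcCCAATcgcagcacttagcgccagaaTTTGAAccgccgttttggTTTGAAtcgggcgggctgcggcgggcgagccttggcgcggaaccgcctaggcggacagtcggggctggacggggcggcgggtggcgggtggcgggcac

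In Top2a the TTTGAA match nearest the start lay 23 to 18 bases before it, in Ube2c 29 to 24 bases before it, and in Mki67 a pair of matches lay 116 to 111 and 98 to 93 bases before it. Over the whole 300-base windows around the start, searched on both strands, 7 of the 9 mitosis genes with a window held TTTGAA, against 17.9% of all 32851 windows, and 8 held CCAAT, against 37.4%. Tpx2 had no window. Among other mitosis genes 23 of 36 windows held TTTGAA, and among DNA replication genes 5 of 39. Replication genes instead held TTTNNCGC, a form of the E2F site, in 16 of 39 windows, against 5.17% of all windows and 1 of 9 for the 10 mitosis genes. TTTGAA and TTTNNCGC may share letters, since both can begin with TTT, and a match is a description of the letters only.

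Cycling cells were the deeper cells of each library. Their median was 43663 UMIs in the adult (range 1100 to 145561) and 51339.5 in the irradiated library (1725 to 170645), against 3500 and 8331.5 UMIs in 0-UMI cells. A shallow dividing cell can fail to reach 5 UMIs, and thinning every cell to 2000 UMIs with a minimum of 2 put the shares at 5.0% in the adult and 1.53% in the irradiated library. The irradiated set held more cells near the minimum: 30 of 72 had 5 to 9 UMIs over the 10 genes, against 28 of 174 in the adult, and 18 against 56 had 100 or more. At the edge of the rule, the 9 adult cells with exactly 5 UMIs had a median of 713 CPM (UMIs per 1e+06 UMIs of the same cells) over the 10 genes and the 16 with 4 had 384 CPM. The 10 irradiated cells with 5 had a median of 117 CPM and the 15 with 4 had 127 CPM. Those 10 irradiated cells held other mitosis genes at 231 CPM and DNA replication genes at 160 CPM, no higher than the 243 and 237 CPM of irradiated 0-UMI cells, so cells at the edge of the irradiated set may not be dividing. Over all 72 cells the 2 lists stood at 2075 and 1407 CPM. Results below are also given for the 146 adult and 42 irradiated cells with at least 10 such UMIs where that moves them.

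**Figure D1:**
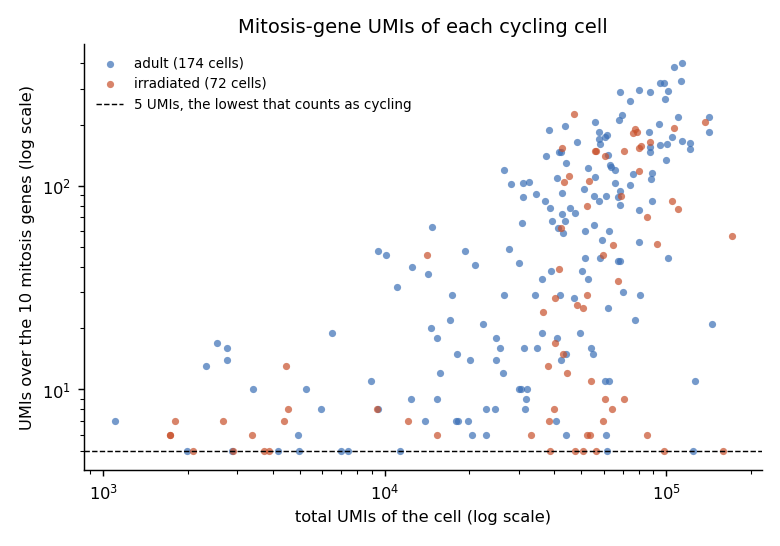
Each point is a cycling cell, with its total UMIs on the x axis and its UMIs over the 10 mitosis genes on the y axis, both on log scales, for 174 adult and 72 irradiated cells. The dashed line is the minimum of 5 UMIs, and 30 irradiated and 28 adult cells lie between 5 and 9.

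Of the markers given for this class, Mki67, Top2a, Olfm4 and Slc12a2, adult cycling cells held all 4, with Olfm4 at 1826 CPM (1798 to 1855) and the ion transporter Slc12a2, a crypt marker, at 392 CPM (379 to 405). Irradiated cycling cells held Slc12a2 at 295 CPM (278 to 313) but Olfm4 at 82.2 CPM (73.3 to 91.9), so they lack most of the Olfm4 that the label names. Mki67 and Top2a were among the genes that chose the cells and say nothing about the label. Both sets were epithelial, with Epcam at 1691 and 1257 CPM. Summed over 28 immune genes the level was 9.88 CPM in adult and 16.9 CPM in irradiated cycling cells, and over 19 stromal genes 5.81 and 6.08 CPM. No barcode of a cycling cell was a cycling cell in the other library, although the libraries shared 7 barcodes. Reporter RNA (eGFP) was counted 9 times in 9 adult and 39 times in 26 irradiated cycling cells, of 8601820 and 3782899 UMIs in all. In 0-UMI cells it was counted 37 times in the adult and 390 times in the irradiated library, of 15993062 and 29377084 UMIs. Per UMI it was thus higher in both kinds of irradiated cell, and lower in cycling than in 0-UMI cells. Bmi1 itself, a Polycomb gene, stood at 6.74 CPM (5.12 to 8.72) and 6.08 CPM (3.85 to 9.12), against 14.8 and 16.6 CPM in 0-UMI cells.

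Some cycling cells also carried markers of other types. After thinning to 2000 UMIs, 24 adult and 12 irradiated cycling cells carried at least 2 UMIs of enteroendocrine genes and 22 and 21 of tuft genes, and 131 and 41 carried neither. Paneth-cell genes took 10% or more of the UMIs in 26 adult and 7 irradiated cycling cells. Scrublet would have removed 12 and 2 of the cycling cells as likely doublets, which were kept here and left out in an alternative. Whether these are mixed droplets or dividing precursors was not tested.

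Against the non-dividing cells of their library, cycling cells held more RNA of replication, mitosis and ribosome biogenesis genes and less enteroendocrine and tuft RNA. A gene is called past 2-fold when log2((CPM + 1)/(CPM + 1)) is at least 1 in size and the group with the higher CPM held at least 50 UMIs. In the adult 16.2% of 11352 genes were higher past 2-fold and 28.4% lower. In the irradiated library these were 13.5% and 27.8% of 11144 genes. Scaling without mitochondrial, ribosomal and Paneth genes moved the median adult gene by 0.37 on the log2 scale, and the share of calls that were higher went from 36.3% to 51%. DNA replication genes were higher for 38 of 38 members in the adult (median log2 ratio 3.05, against -0.30 for all genes) and for 28 of 30 in the irradiated library (2.95, against -0.39). Mitosis genes outside the rule were higher for 39 of 40 and 30 of 32. Ribosome biogenesis genes, such as Ncl (nucleolin), were higher for 24 of 26 in the adult and 26 of 26 in the irradiated library, with medians of 1.69 and 1.83. Oxidative phosphorylation genes were higher for 16 of 23 and 10 of 23. Glycolysis genes were higher for 2 of 16 and lower for 6 in the adult, and higher for 4 of 16 and lower for 2 in the irradiated library.

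Of the genes eligible to be named (at least 100 UMIs, seen in 20% of cells, at most 25% from 1 cell), 10 were chosen for their high ratios in both libraries, and these values are a description. They included Pclaf, a PCNA-binding factor, at 197 CPM against 4.13 in the adult and 83.3 against 1.02 CPM in the irradiated library. Others were the potassium channel Kcnn4 (121 against 3.50 CPM, and 144 against 2.83 CPM), Fgfbp1 (94.2 against 2.63, and 54.5 against 1.26 CPM) and Cenpm, a kinetochore gene. Phgdh and Shmt1, enzymes of serine and one-carbon metabolism, were also among them, with Phgdh at 56.3 against 1.94 CPM in the adult and 117 against 5.28 CPM in the irradiated library. Ccnd1, the G1 cyclin D1, stood at 147 against 6.50 CPM and 366 against 19.3 CPM. Olfm4, Clca3b and Rbp7 completed the set.

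Enteroendocrine genes were lower in cycling cells for 31 of 32 members in the adult and 32 of 33 in the irradiated library, and tuft genes for 22 of 22 and 21 of 22. The 10 eligible genes with the lowest ratios in both libraries included 3 peptide hormones, Nts (neurotensin) at 13.3 against 1603 CPM in the adult, Sct (secretin) at 952 against 25860 CPM and Sst (somatostatin) at 428 against 10847 CPM. The others were Gsdma, Scg2, Serpina1c, Syt7, Pcsk1n, Peg3 and Mgll. This contrast is one with endocrine and tuft cells: of the 0-UMI cells deep enough to thin, only 44 of 2142 in the adult and 91 of 2276 in the irradiated library carried neither set of markers, and 29 and 60 of those were at least 10% Paneth RNA. With marked cells left out the counts became 6686 higher and 115 lower genes in the adult, and 4353 and 119 in the irradiated library.

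Between the 2 sets of cycling cells, 7.89% of 8539 genes were higher past 2-fold after irradiation (674 genes) and 8.1% were lower (692), with a median log2 ratio of -0.09 over all genes. Among 0-UMI cells 2.28% of 11860 genes were higher and 4.07% lower. The gene list that differed most was that of the regenerating epithelium, with 19 of 20 measured members higher, none lower and a median log2 ratio of 4.51. In 0-UMI cells 9 of 20 members were higher and the median was 0.94. The list has 26 genes in the files, and 6 were below the count minimum.

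Ly6a, the surface antigen Sca-1 (chr15:74994877-74998031 in GRCm38, minus strand), stood at 2.44 CPM in adult cycling cells (1.51 to 3.73, 21 UMIs in 15 cells) and at 529 CPM in irradiated ones (506 to 553, 2001 UMIs in 64 of 72 cells), a ratio of 217 (141 to 351). Among cycling cells with at least 10000 UMIs, 155 adult and 59 irradiated, its level ran from 0 to 53.6 CPM with a median of 0 in the adult and from 0 to 1944 CPM with a median of 339 in the irradiated set. Thinned to 10000 UMIs, 3.23% of adult (1.06% to 7.37%) and 81.4% of irradiated (69.1% to 90.3%) cycling cells kept a Ly6a UMI. In the 0-UMI cells the shares were 5.28% and 12%. Of the irradiated 0-UMI cells of that depth, 1014 of 1101 held core enteroendocrine genes at 500 CPM or more. The contrast within the irradiated library is thus mainly one with endocrine cells. Ly6a was also at 450 CPM in the 15 irradiated cells with 4 mitosis-gene UMIs, which entered neither set, and at 337 CPM in the 10 with 5.

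Clu, a secreted chaperone, went from 0.581 CPM (0.189 to 1.36) to 227 CPM (212 to 243), and the annexin Anxa3 from 0.93 CPM (0.402 to 1.83) to 219 CPM (205 to 235). Their 0-UMI levels were 3 and 0.438 CPM in the adult and 15.2 and 16.1 CPM in the irradiated library. Il1rn, the interleukin-1 receptor antagonist, had 0 UMIs in adult cycling cells and stood at 70.8 CPM (62.6 to 79.9) after irradiation, at least 203-fold higher when 3 UMIs are put in place of 0. Anxa8 at 68.2 CPM, Ly6d at 57.6 CPM and Anxa1 at 41 CPM also had 0 UMIs in the adult set, giving at least 196-fold, 165-fold and 117-fold. A single cell held 40.8% of the Ly6d UMIs.

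The other genes were also counted in cells thinned to 10000 UMIs. Clu kept a UMI in 1.94% of adult and 40.7% of irradiated cycling cells, against 4.59% and 5.99% of 0-UMI cells. Anxa3 kept one in 0% of adult and 74.6% of irradiated cycling cells, against 0.917% and 5.54% of 0-UMI cells. The irradiated cycling cells thus had the highest share for each gene. Summed over the list, adult cells ran from 0 to 1842 CPM with a median of 344, and irradiated cells from 671 to 21065 CPM with a median of 5458. In 55 of 59 irradiated cells the sum exceeded that of every adult cycling cell. The 0-UMI cells are not free of these genes: 140 of 436 deep adult 0-UMI cells and 407 of 1101 irradiated ones passed the same level. The list includes Krt7 and S100a11, which stood at 725 and 328 CPM in adult 0-UMI cells.

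**Figure D2:**
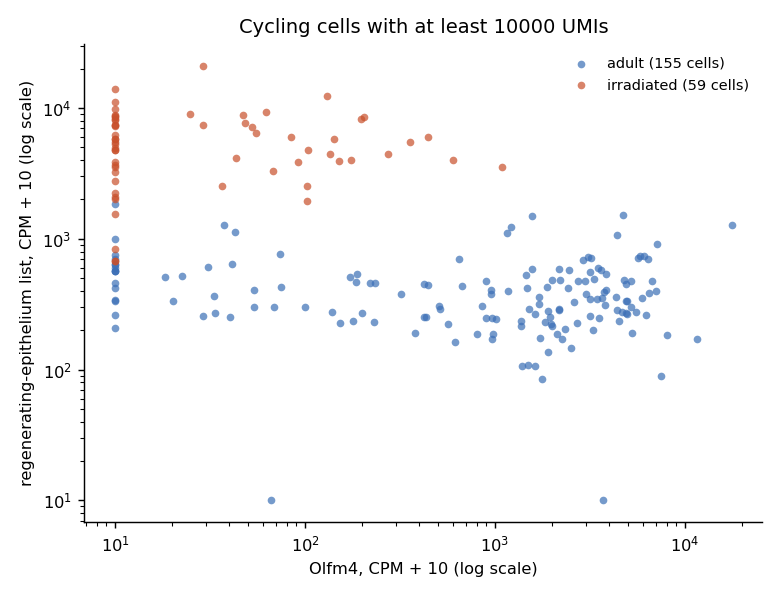
Each point is a cycling cell with at least 10000 UMIs (155 adult, 59 irradiated), with Olfm4 on the x axis and the summed regenerating-epithelium list on the y axis, both as CPM + 10 on log scales. Adult cells reach 1842 CPM of the list, and 55 of 59 irradiated cells lie above that level, mostly at low Olfm4.

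Other members were counted in the adult set, Plaur and Il33 only near the floor, and were higher after irradiation. Anxa2 was at 89.6 CPM in adult and 1421 CPM in irradiated cycling cells, and S100a11, a calcium-binding protein, at 56.6 and 1109 CPM. The TWEAK receptor Tnfrsf12a was at 11.9 and 193 CPM, the chemokine Cxcl16 at 1.40 and 83 CPM, and the urokinase receptor Plaur at 0.465 and 38.6 CPM. The alarmin Il33 was at 0.465 and 59 CPM. Cyr61, a YAP target, was the 1 measured member not past 2-fold, at 65.9 CPM (60.6 to 71.6) and 56.6 CPM (49.2 to 64.7). Leaving out low-scoring cells did not weaken the list: at 10 or more mitosis-gene UMIs its median was 4.55, and without endocrine- or tuft-marked cells it was 4.46.

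Outside the list, the 10 eligible genes with the highest ratios included S100a6, a calcium-binding protein, at 34.3 CPM (30.5 to 38.4) in adult and 3508 CPM (3448 to 3568) in irradiated cycling cells. It was detected in 46 of 174 and in 72 of 72 cells. Crip2 was at 1.40 and 225 CPM. Atg9b, an autophagy gene, had 0 UMIs in the adult set and stood at 69.5 CPM in the irradiated one, at least 199-fold higher. Sprr2a3, a cornified-envelope gene with near-identical copies that counting could split, was at 0.349 CPM from 3 UMIs and at 87 CPM, a ratio of 249 with an interval of 84.6 to 1215. Krt15, not among those 10, is a keratin on a list of reserve stem cell genes and was at 3.02 and 142 CPM. Of 8 measured members of that list 3 were higher and 0 lower, with a median log2 ratio of 0.22. Hopx and Bmi1 were within 2-fold, at -0.31 and -0.13 on the log2 scale.

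Of the ligands of the EGF receptor, Areg and Btc were higher after irradiation. Areg (amphiregulin) stood at 27.3 CPM (23.9 to 31) in adult and 392 CPM (372 to 412) in irradiated cycling cells, against 18.1 and 34.9 CPM in 0-UMI cells. Btc (betacellulin) was at 3.14 and 76.4 CPM. Hbegf, another ligand, was at 125 and 143 CPM and the receptor Egfr at 15.1 and 23.8 CPM, both within 2-fold. Etv4 and Dusp6, which ERK signalling induces, were at 2.21 and 40.4 CPM and at 7.44 and 39.7 CPM. In all 4 of 14 measured family and pathway genes were higher and none lower, and the median of the list was -0.17.

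Targets of p53 were higher in irradiated cycling cells: 15 of 26 measured genes of cycle arrest and stress (median log2 ratio 1.46) and 9 of 14 genes of cell death (1.90), with 1 and 0 lower. In 0-UMI cells 11 of 26 and 3 of 14 were higher, with medians of 0.79 and 0.42. Cdkn1a, the p21 inhibitor of cyclin-dependent kinases (chr17:29090976-29100727, plus strand), stood at 93.4 CPM (87 to 100) in adult and 710 CPM (683 to 737) in irradiated cycling cells. In the 0-UMI cells it was at 498 and 912 CPM, so in both libraries p21 RNA was lower in cycling than in 0-UMI cells. After irradiation every cycling cell with at least 10000 UMIs held Cdkn1a, from 52.7 to 3648 CPM with a median of 729, while the adult cells ran from 0 to 4751 CPM with a median of 45.6.

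Phlda3, an inhibitor of AKT, was higher in both kinds of irradiated cell, at 2.91 and 208 CPM in cycling cells and 1.88 and 75.9 CPM in 0-UMI cells. Mdm2, the ligase that degrades p53, was at 16.5 and 146 CPM, and Ccng1 at 29.1 CPM (25.6 to 32.9) and 310 CPM (293 to 328). Zmat3 was at 6.16 and 65.6 CPM, the stress hormone Gdf15 at 18.7 and 148 CPM, and Psrc1 at 8.02 and 76.9 CPM. Of the death genes, Bax was at 122 and 523 CPM, Perp at 70.5 and 272 CPM, Siva1 at 86.1 and 318 CPM, Bbc3 (PUMA) at 6.98 and 37.3 CPM and the receptor Eda2r at 1.05 and 22.7 CPM. Not every target took part: Btg2 was at 349 and 340 CPM, Pmaip1 (NOXA) at 29.4 and 36.5 CPM, and Sesn1 was lower, at 15.5 and 7.14 CPM. Summed over the arrest list, 56 of 59 deep irradiated cycling cells lay above the upper quartile of adult ones, at a median of 3063 against 1031 CPM. Deep 0-UMI cells had medians of 2343 CPM in the adult and 3290 CPM in the irradiated library. On the summed arrest list the irradiated cycling cells thus did not exceed their own 0-UMI cells at the median, and the adult cycling cells were the lowest group. Gene by gene, 8 of 25 arrest genes were higher and 3 lower in irradiated cycling over 0-UMI cells. The death list did exceed them, with 7 of 14 genes higher and 1 lower. Its deep-cell medians were 1454 CPM in irradiated cycling and 697 CPM in irradiated 0-UMI cells, and 487 and 463 CPM in the adult.

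**Figure D3:**
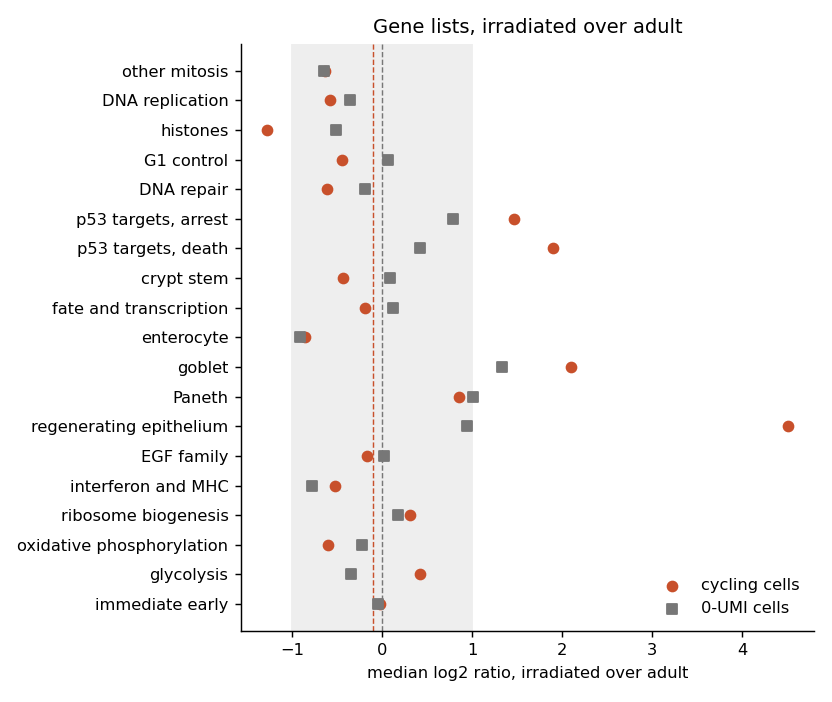
Median log2 ratio of irradiated over adult for 19 gene lists, in cycling cells (circles) and 0-UMI cells (squares). Dashed lines are the medians of all genes and the grey band spans ratios within 2-fold. The regenerating-epithelium list lies at 4.51 in cycling and 0.94 in 0-UMI cells.

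The stem cell genes of the crypt base differed among themselves. Of 24 measured, 9 were lower and 2 higher after irradiation, with a median of -0.44. Olfm4 (chr14:79984081-80023139, plus strand), a secreted glycoprotein of the stem cell zone, was 22.2-fold lower (19.9 to 24.9) in irradiated than in adult cycling cells. In deep adult cells it ran from 0 to 17564 CPM with a median of 1562, and 89 of 155 held at least 1000 CPM. In the irradiated cells it ran from 0 to 1078 CPM with a median of 0, and 1 of 59 held at least 1000 CPM. It was also lower in 0-UMI cells, at 78.8 and 1.06 CPM, so within the irradiated library cycling cells still held more Olfm4 than non-dividing ones.

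Lgr5, the R-spondin receptor that marks the active stem cell, was at 29.2 CPM (25.7 to 33) in adult and 11.1 CPM (8 to 15) in irradiated cycling cells, detected in 67 of 174 and 21 of 72. At 10 or more mitosis-gene UMIs the log2 ratio of Lgr5 was -0.93, within 2-fold, against -1.32. Smoc2 was at 95.8 and 29.1 CPM, Cdca7 at 103 and 42.8 CPM, Aqp4 at 58.9 and 7.67 CPM, Gkn3 at 47 and 17.4 CPM, and the Wnt target Axin2 at 51.8 and 24.8 CPM. At 10 or more such UMIs Cdca7 went from -1.25 to -0.93 and Axin2 from -1.03 to -0.78, both within 2-fold. Others stayed within 2-fold: Ascl2, the stem cell transcription factor, at 39.6 CPM (35.5 to 44.1) and 32 CPM (26.5 to 38.2), Rnf43 at 32.3 and 32.5 CPM and Sox9 at 87.3 and 117 CPM. The 2 higher genes were Cd44, a Wnt target and adhesion receptor, at 39.1 and 169 CPM, and Gpx2, a glutathione peroxidase, at 1059 and 4949 CPM.

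Adult cycling cells varied along Olfm4. The 89 deep cells with at least 1000 CPM held Lgr5 at 52.1 CPM, Ascl2 at 67.1 CPM and Slc12a2 at 598 CPM. The 34 cells under 100 CPM held 0.522, 0 and 55.3 CPM of these genes, and instead Fabp1, a fatty acid carrier of enterocytes, at 1665 against 152 CPM, Reg1 at 344 against 6.04 CPM and the carbonic anhydrase Car4 at 363 against 24.8 CPM. DNA replication genes, which the rule did not use, summed to 2278 CPM in the first set and 1222 CPM in the second. Paneth genes also moved with the split, at 112012 CPM against 6807 CPM, and 21 of the 89 cells were at least 10% Paneth RNA; the part of this in the other values was not tested. Across the 155 cells Spearman's rho between Olfm4 and 7 enterocyte genes was -0.63. These 7 genes were chosen after values had been seen, and the cells share 1 library. Among the 47 irradiated cells with under 100 CPM of Olfm4, Slc12a2 was at 258 CPM and Ascl2 at 25.2 CPM, levels far above those of the adult cells with as little Olfm4, and Fabp1 was at 223 CPM and Reg1 at 2.84 CPM, far below them. Other enterocyte genes were closer, with Apoa1 at 68.4 CPM against 86.1 CPM in the adult cells with as little Olfm4. The whole enterocyte list summed to 6963 CPM in these irradiated cells, between the 14778 CPM of the Olfm4-poor and the 4080 CPM of the Olfm4-rich adult cells. Their Paneth genes stood at 124292 CPM as a sum over cells. Of all 59 deep irradiated cycling cells 7 were at least 10% Paneth RNA, and the median of the 59 was 1535 CPM.

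Enterocyte genes were lower in irradiated cycling cells for 12 of 28 members and higher for 3, with a median of -0.86. The 0-UMI cells gave 14 of 33 lower and a median of -0.91. Dmbt1, a scavenger receptor of the mucosa, was at 925 CPM (905 to 946) in adult and 23 CPM (18.4 to 28.4) in irradiated cycling cells and was the fourth lowest of the eligible genes. Adh6a was at 106 and 4.49 CPM, Reg1 at 83.6 and 2.64 CPM, the aminopeptidase Anpep at 38.7 and 5.02 CPM and the lipid transfer gene Mttp at 95.7 and 17.4 CPM. Reg3g, an antimicrobial lectin, was higher, at 108 and 598 CPM.

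Among the 10 lowest eligible genes were several more of the upper crypt and villus. Gsdmc4, a gasdermin with near-identical neighbours, was at 144 CPM in 83 adult cycling cells and at 0 UMIs in the irradiated ones, at least 181-fold lower, and its neighbour Gsdmc2 was at 35.6 and 0.264 CPM. Car4 stood at 118 CPM in adult cycling cells, and 1 UMI was counted in the irradiated set, a ratio of 446 with an interval of 79.9 to 17631. Arg2, the mitochondrial arginase, was at 162 CPM (153 to 171) and 1.85 CPM (0.744 to 3.81). Apol10a was at 42.8 and 0.264 CPM.

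Major histocompatibility complex class II genes, which present antigen and which crypt cells express under interferon-gamma, made up another low group. H2-Aa was at 36.6 CPM (32.7 to 40.9) in adult cycling cells and had 0 UMIs in irradiated ones, at least 46.2-fold lower. H2-Ab1 was at 102 and 2.91 CPM, H2-Eb1 at 75.9 and 12.7 CPM, Cd74, the invariant chain, at 92.1 and 33.3 CPM and Ciita, their activator, at 6.39 and 1.32 CPM. A single cell gave 70.6% of the irradiated Cd74 UMIs. The immunoproteasome genes Psmb8 and Psmb9 were at 216 and 41 CPM and at 153 and 21.9 CPM. Class I genes stayed within 2-fold, H2-D1 at 343 and 366 CPM and B2m at 276 and 191 CPM. Of 23 measured interferon and MHC genes 10 were lower and 2 higher: Irf7, and Isg15 at 6.16 and 64 CPM, of which 1 irradiated cell held 67.4%. The immune-cell genes were near 0 in both sets of cycling cells, as given above, and leaving immune-marked cells out kept the median of the list below 0, as did every other alternative run. The list was also lower in 0-UMI cells. There 8 of 25 members were lower and 0 higher, with a median of -0.77 against -0.52 in cycling cells.

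Genes of the cell cycle itself were lower in irradiated cycling cells by less than 2-fold for most members. The 10 mitosis genes had a median log2 ratio of -0.65, the other mitosis genes -0.63 with 6 of 40 lower, and replication genes -0.58 with 4 of 36 lower. Mki67 was at 273 CPM (262 to 284) in adult and 110 CPM (99.9 to 121) in irradiated cells and Cenpf at 164 and 58.7 CPM, while Ube2c was at 350 CPM (338 to 363) and 379 CPM (359 to 399). With at least 10 mitosis-gene UMIs the medians were -0.33, -0.31 and -0.30, and Mki67 went from -1.30 to -0.93. The rule used the first of these lists, so it is a description only. Among replication genes Tk1, which supplies thymidine, was at 66.3 and 19.8 CPM and the polymerase Pold1 at 30.5 and 8.99 CPM, but Rrm2 was at 49.8 and 74 CPM and Mcm5 at 63.5 and 57.9 CPM. Whether the lower values are particular to cycling cells cannot be told from 0-UMI cells. Those were chosen for 0 UMIs over the 10 mitosis genes. That filter is stricter for deeper cells, and their median was 3500 UMIs in the adult and 8331.5 in the irradiated library. In 0-UMI cells the other mitosis genes had a median of -0.64 with 6 of 14 lower, and replication genes -0.35 with 0 of 24 lower.

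Histone genes were lower after irradiation for 8 of 17 members in 0-UMI cells (median -0.51) and for 11 of 21 in cycling cells, with a median of -1.27. Hist1h1b was at 151 and 33.6 CPM, Hist1h2ab at 36.9 and 1.59 CPM and the variant H2afv, which is not tied to replication, at 573 CPM (557 to 589) and 134 CPM (122 to 146), while H2afz was at 1381 and 943 CPM. Replication-dependent histone RNAs mostly lack the poly(A) tail that the 3' kit captures and come in near-identical copies, so their counts are partial. DNA repair genes were lower for 6 of 33 members and higher for none, with Brca2 at 28.8 and 7.93 CPM and Atm at 19.4 and 8.46 CPM. At 10 or more mitosis-gene UMIs Atm went from -1.11 to -0.84 on the log2 scale, within 2-fold.

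Of the genes that control entry into the cycle, 7 of 19 were lower and 2 higher, with a median of -0.45 that became -1.02 at 10 or more mitosis-gene UMIs. Both higher genes were D cyclins. Ccnd1 was at 147 CPM (139 to 156) and 366 CPM (347 to 386), with medians of 122 and 338 CPM over deep cells, and Ccnd2 at 306 CPM (295 to 318) and 689 CPM (663 to 716). Their partner kinases Cdk4 and Cdk6 were at 231 and 190 CPM and at 80.1 and 110 CPM. The inhibitor Cdkn1b (p27) was lower, at 34.1 and 13.7 CPM, while Myc was at 26.6 and 44.7 CPM. In irradiated cycling cells higher p21 and lower p27 RNA than in adult cycling cells thus stood beside higher D cyclin RNA.

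**Figure D4:**
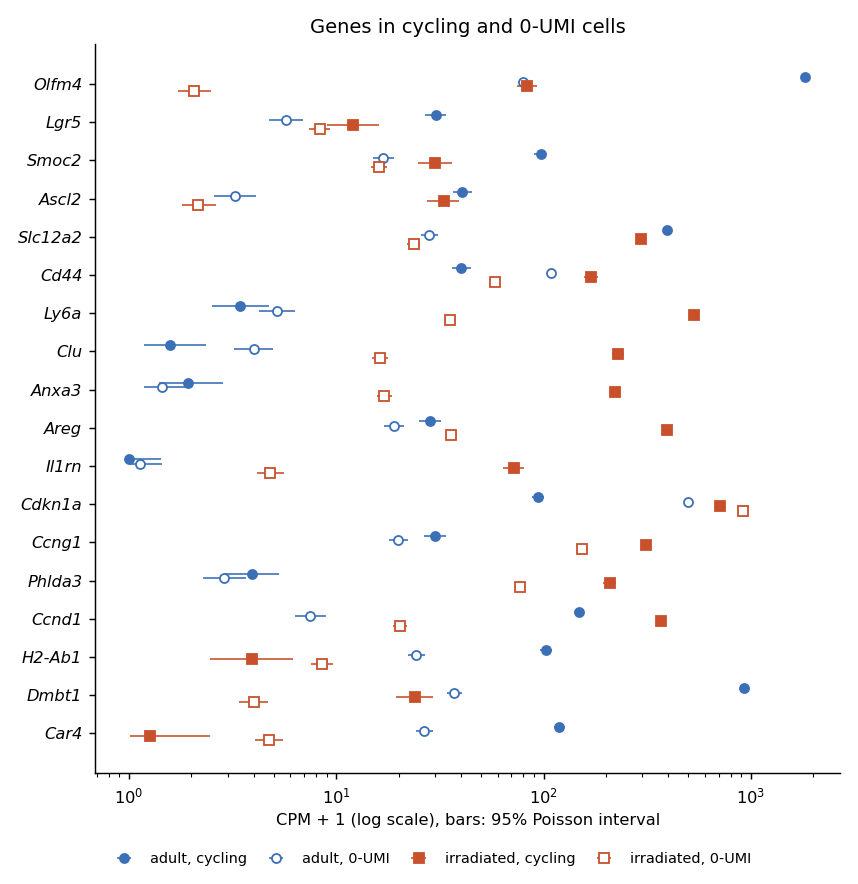
CPM + 1 on a log scale for 18 genes in cycling (filled) and 0-UMI (open) cells of the adult (circles) and irradiated (squares) libraries. Bars are 95% Poisson intervals for counting error, and 1 library stands behind each point; Ly6a is at 529 CPM in irradiated cycling cells and at or below 34.3 CPM in the other groups.

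Secretory genes depended on which cells were counted as cycling. All told 11 of 15 goblet genes were higher after irradiation with a median of 2.10, including the mucin Muc2 at 112 and 668 CPM, Tff3 at 718 and 4459 CPM and the lectin Zg16 at 92.5 and 6584 CPM. In 0-UMI cells 9 of 16 were higher, and Zg16 was at 4.56 and 4808 CPM. With at least 10 mitosis-gene UMIs the median of the list turned to -0.54, Zg16 to -1.24 and Muc2 to -0.13 on the log2 scale, and Tff3 went from 2.63 to 0.70. The median turned to -0.89 when the 10 genes had to reach 500 CPM. In the irradiated set 1 cell held 24.6% of the Zg16 UMIs. The secretory regulator Atoh1 behaved alike, at 8.60 and 21.9 CPM with a log2 ratio of 1.26 that became -2.27 at 10 UMIs. Neurog3, which starts the enteroendocrine fate, was at 4.42 CPM from 11 adult cells and 18.8 CPM from 3 irradiated cells. Hes1, the Notch effector that keeps progenitors absorptive, stayed within 2-fold at 119 and 95.4 CPM. The Notch ligands Jag1 and Jag2 were at 4.65 and 15.6 CPM and at 2.09 and 14.3 CPM.

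The simple-epithelial keratins were higher after irradiation in cycling cells, with Krt8 at 1833 and 6076 CPM, Krt18 at 683 and 3792 CPM and Krt19 at 1248 and 3703 CPM. Krt8 and Krt18 went the other way in 0-UMI cells, at 3857 and 2927 CPM and at 6887 and 2697 CPM. Over the same comparison of 0-UMI cells, tuft genes were lower for 19 of 22 members, while the enteroendocrine core list had none past 2-fold. In the cycling cells, where the keratins were higher, tuft genes were higher for 6 of 12 members and lower for none, with a median of 0.93. With endocrine- or tuft-marked cells left out that tuft median became -0.29. Over all alternatives, leaving out endocrine- or tuft-marked cells among them, the log2 ratio in cycling cells stayed between 1.55 and 1.90 for Krt8 and between 2.21 and 2.58 for Krt18. Glycolysis genes were higher for 4 of 14 members, with Gapdh at 394 and 1323 CPM and the enolase Eno1 at 9.88 and 68.7 CPM. Ribosome biogenesis genes had none of 26 past 2-fold (median 0.31), and oxidative phosphorylation genes 1 of 23 lower (median -0.60). Mitochondrially encoded RNA took a median of 10.2% of UMIs in adult and 7.34% in irradiated cycling cells.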

How the data were processed

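The authors deposited raw UMI counts per gene and barcode, made with Cell Ranger 3.1.0 on mm10, per the submitters' processing notes. Totals were 38648331 UMIs over 6287 adult and 50761353 over 5996 irradiated barcodes, and cycling cells held 8601820 and 3782899. UMIs were summed over cells and scaled to CPM (pseudocount 1 CPM). Levels carry exact Poisson, shares Clopper-Pearson and ratios exact conditional 95% intervals. Doublets were kept. The functions were checked on simulated sums of 7089 genes for irradiated over adult cycling cells, where all 200 changed genes had the right direction and 95% of true folds lay inside the interval. Cycling-cell members and the 27 gene lists were chosen with earlier results of these data known. Genes are named as list members, as the reporter and Bmi1, or as the 10 highest and 10 lowest ratios with at least 100 UMIs, in 20% of cells and at most 25% from 1 cell; genes that are predicted, sex-linked or of mitochondria, ribosomes, haemoglobin or immunoglobulins were not eligible. Gene positions are from GENCODE M21 and promoters from RefSeq. The tools were Python 3.11.15, numpy 2.4.6, scipy 1.17.1, scanpy 1.11.5 (Scrublet, 0.8% per 1000 barcodes) and edgeR 4.0.16, used for TMM factors only. The gene comparisons were repeated under 16 other settings, and under 3 more chosen after seeing the data.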

Additional observations from a re-analysis of the deposited data

Results flagged for a closer look

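Some genes differed in opposite directions in 2 contrasts, each past 2-fold; with 1 library per group none of these differences was tested. For cycling over 0-UMI cells, the log2 ratio in the adult and then in the irradiated library was -4.10 and 2.15 for S100a6, -2.93 and 2.94 for Crip2, -2.51 and 2.32 for S100a11, and -1.73 and 1.46 for Tnfrsf12a. It was -1.61 and 2.56 for Cxcl16, -1.45 and 1.54 for Cd44, and -1.07 and 1.05 for Krt8. With endocrine- or tuft-marked cells left out, the adult ratio turned to 0.63 for S100a6, 2.13 for S100a11, 1.22 for Tnfrsf12a, 2.75 for Cd44 and 1.45 for Krt8. The median of all genes was 1.72 under that setting, so nearly every gene turned or stayed positive. The change of sign therefore cannot show what the opposite directions of these 5 genes rest on. Crip2 and Cxcl16 had too few UMIs for a value there. The opposite held for 2 genes, Car4 at 2.16 and -1.91 and H2-Ab1 at 2.07 and -1.13. Isg15 went from -4.18 to 1.04, with 67.4% of its irradiated cycling UMIs in 1 cell. For irradiated over adult cells, Isg15 was at 3.18 in cycling and -2.04 in 0-UMI cells, and Krt18 at 2.47 and -1.35.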

How the results depend on the processing

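No paired analysis was possible because each group is 1 library and the labels tie no library to another. Of the 5 list medians past 2-fold between irradiated and adult cycling cells, 4 kept their direction under every alternative run, the exception being goblet genes (-0.54 at 10 mitosis-gene UMIs, -0.89 at 500 CPM). Fewer stayed past 2-fold under every alternative, 3 of the 5 lists and 75 of 97 single genes. Of those 97 genes, 93 kept their direction. The others were Zg16 (-1.24 and -1.13), Muc2 (-0.13 and -0.69) and Atoh1 (-2.27 and -2.14) under the same 2 settings, and Nts (-0.10) at 3 UMIs. The share of cycling cells was 5.97% adult and 3.39% irradiated at 3 UMIs, 3.85% and 1.32% at 10, 3.69% and 1.5% over every barcode, and 3.67% and 1.51% at 500 CPM. Thinned to 2000 UMIs the irradiated share was 1.53%. The counts for irradiated over adult, 674 higher and 692 lower, became 416 and 276 with a pseudocount of 10 CPM and 272 and 367 at a minimum of 200 UMIs. A minimum of 1 UMI gave 1416 higher, and at least 1000 genes and at most 10% mitochondrial UMIs gave 458 lower. The share of calls that were higher was 49.3%, and 60.1% with the pseudocount of 10 and 59.5% at 1 UMI. For cycling over 0-UMI cells a pseudocount of 10 CPM gave 1141 higher and 1515 lower in the adult and 1125 lower in the irradiated library, where a minimum of 200 UMIs gave 775 higher. TMM factors moved the median gene of that adult comparison by 0.20, and leaving out mitochondrial, ribosomal and Paneth genes by 0.37, which took the share of higher calls from 36.3% to 51%.

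Leaving out endocrine- or tuft-marked cells left 44 adult and 91 irradiated 0-UMI cells, mostly rich in Paneth RNA. The counts became 6686 higher and 115 lower in the adult and 4353 and 119 in the irradiated library. The median log2 ratio of all genes became 1.72 in the adult and 1.62 in the irradiated library. Each list median given next is positive but below that of all genes, so it shows no enrichment of the list in cycling cells. In the adult the medians turned to 0.37 for endocrine, 0.27 for core endocrine, 0.83 for tuft, 1.00 for regenerating-epithelium and 1.30 for immediate early genes, and in the irradiated library to 0.36 for tuft and 0.93 for immediate early genes. Single genes that turned in the adult were Apol10a (-0.092), Arg2 (-0.24), Cd44 (2.75), Krt18 (1.22), Krt8 (1.45), Pcsk1n (0.39), S100a11 (2.13), S100a6 (0.63), Scg2 (0.69), Sct (0.72) and Tnfrsf12a (1.22), and in the irradiated library Sst (3.79). Isg15 turned to -0.14 there as a mean over cells. The cause of the other shifts was not tested. At 72 irradiated cycling cells a gene under 50 UMIs in both sets gets no call.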
